A study of Rattus norvegicus with 12 samples.

Results

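Tendon fascicles are the fine collagen bundles that make up a tendon, and the cells within them, tenocytes, lie in rows between the collagen fibres. The question here was how the transcripts of unstrained fascicles from rat tail tendon differed after 24 h in vitro from those after 1 h. The comparison used 6 of the 12 arrays of the study: 3 RNA samples of unstrained fascicles at 24 h and 3 of unstrained fascicles at 1 h, chosen by their labels. The other 6 arrays held fascicles under cyclic tensile strain for 24 h or 1 h and serve to ask whether time acted alike in them. All 12 arrays also entered the choice of probes and the estimate of spread behind each standard error and p-value. Each sample was total RNA from rat tail tendon, hybridised to 1 Illumina rat bead array. The sources used here name neither the strain, age and sex of the rats nor the culture medium, and no sample of freshly isolated tissue was analysed here. Whether different rats gave the 3 samples within a group is not stated, so the p-values reflect only how far these samples vary, and that variation may be technical. They name no array batch either, so time and any batch that follows it cannot be told apart.

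Tenocytes build the tendon by secreting collagen I and the small proteoglycans that order its fibrils, and they remove it with matrix metalloproteinases and aggrecanases, which tissue inhibitors hold back. In the animal a tail tendon bears load, and a fascicle without load in vitro is a known model of stress deprivation, in which tenocytes round up and turn towards breaking down matrix. Isolation is itself a stimulus: immediate early genes, which need no new protein to be transcribed, are switched on by handling of a tissue and usually decline within hours.

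Values are intensities on a linear scale. On each array the middle probe read 57.0, the lowest 33.7 and the highest 14804. A value of 45 to 65 is therefore close to the floor, and a fold change against it understates the change of the transcript. Fold changes are log2 ratios, 24 h over 1 h, given with the standard error of the fit. A probe was called at a limma adjusted p under 0.05 over the 11258 probes kept. A gene is said to have risen or fallen where it was called.

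Time changed 1942 of the 11258 probes, which is 17.2%. At 24 h, 1107 probes (9.83%) were higher and 835 (7.42%) were lower than at 1 h, and 158 of the higher and 258 of the lower probes differed at least 2-fold. The 3 arrays at 24 h did not overlap the 3 at 1 h in 33.7% of probes, and in 1920 of the 1942 called. Arrays correlated at 0.978 to 0.985 within 24 h, at 0.972 to 0.979 within 1 h and at 0.935 to 0.955 across times. The first principal component of the 6 arrays held 65.0% of their variance and parted the times. Replicate 1 at 1 h stood apart from the other 1 h arrays on the second component, which held 13.5%. Leaving it out gave 1577 calls, 822 higher and 755 lower. The array with most bearing on the count was replicate 1 at 24 h, without which 1227 probes were called, 676 higher and 551 lower. Counted with 1 probe a gene, 863 of 7780 genes rose (11.1%) and 679 fell (8.73%), 19.8% in either direction, and the gene lists below are read against these shares.

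The tissue was checked by its own markers. The tenocyte genes Col1a2, Dcn, Thbs4 and Tnmd, a tendon membrane protein, were among the bright probes at both times, and Scx and Mkx, the transcription factors of tendon, were not analysed here. Thbs4, a matrix glycoprotein of tendon, read 4434, 3979 and 6061 at 24 h, against 4872, 4788 and 6212 at 1 h. These arrays overlap, and the log2 fold change of -0.15 ± 0.16 was not called (adjusted p = 0.622). Tnmd read 1581, 1839 and 2382 at 24 h, against 2373, 3392 and 5188 at 1 h, also with overlap, at -0.86 ± 0.33 (adjusted p = 0.102). Of the 12 tendon cell markers kept 6 fell and 1 rose, at a median of -0.90, and 0 rose without any array but replicate 2 at 24 h. The falls were Egr1, Col1a1, Kera, Fmod, Tppp3 and Pi16. Egr1 is also counted among the immediate early genes below, and Tppp3 and Pi16 among those of sheath or surface fibroblasts. The counts of these lists are therefore not separate results.

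**Figure D1:**
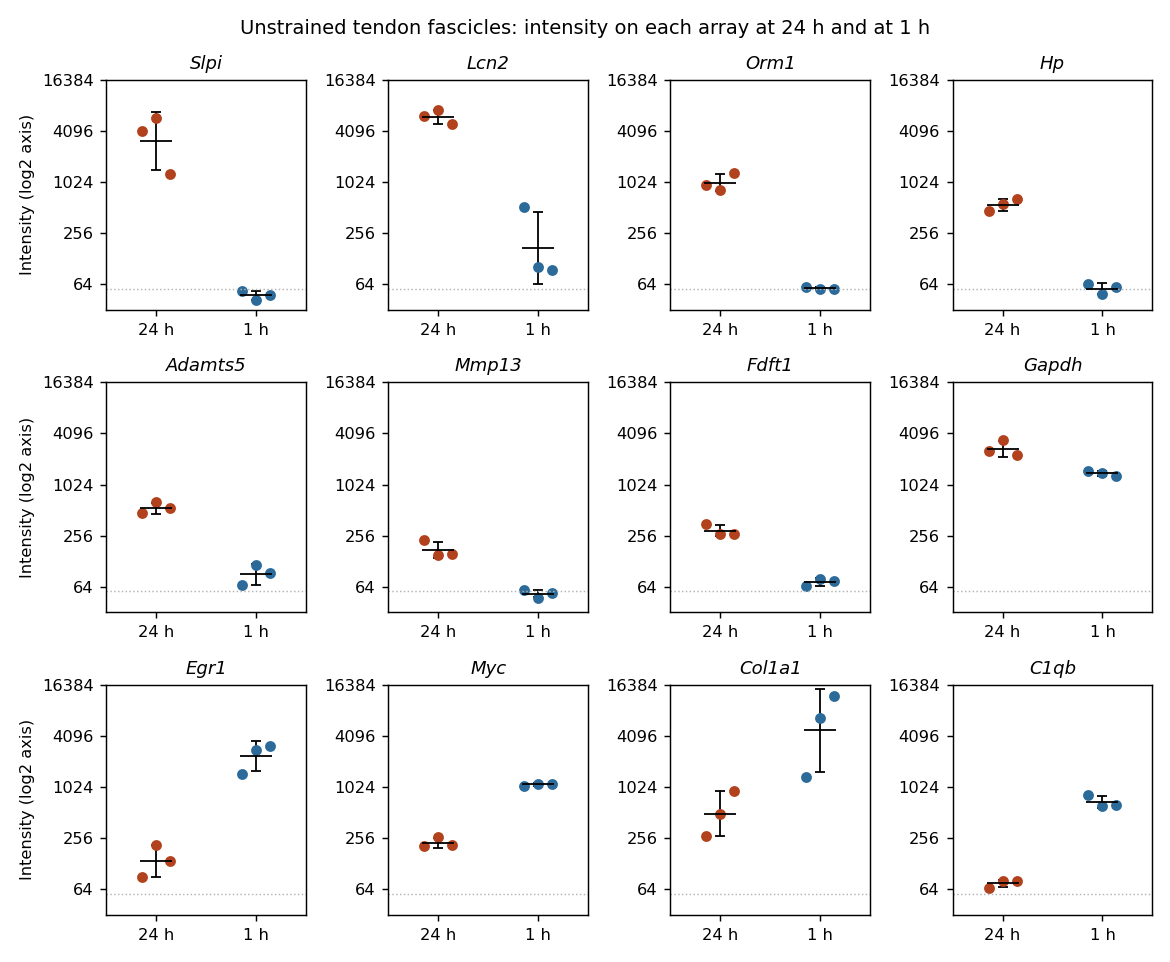
Intensity of 12 genes on each of the 6 unstrained arrays, on a log2 axis, with 24 h on the left and 1 h on the right of each panel. Dots are arrays in replicate order, bars the mean and SD of log2 values (n = 3 each), and the dotted line the middle probe of an array. Slpi, Orm1, Hp and Mmp13 sit at the dotted line at 1 h, and C1qb comes close to it at 24 h.

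Immediate early genes, the first that cells transcribe after a stimulus, were mostly lower at 24 h. Of 33 kept, 18 fell and 3 rose, with a median log2 fold change of -0.88, against 0.00969 over all kept genes. Many of this class are known to respond through the serum response element, which binds the factor SRF. It was searched on both strands, as 10 bases that begin with CC, end with GG and hold TAT at the fourth to the sixth, in the RefSeq promoters of build GRCr8, from 250 bases before to 50 bases after each annotated start. The motif occurred in 1.26% of 33469 promoters and in 4 of the 22 list members with a promoter, Egr1, Egr2, Dusp5 and Srf, which all fell. The 160 bases before the start are given for Egr1 and Egr2, with matches in capitals, because they carry this motif and are among the largest falls. CCATATATGG reads the same on both strands.
Egr1, chr18:26736918-26737077, plus strand: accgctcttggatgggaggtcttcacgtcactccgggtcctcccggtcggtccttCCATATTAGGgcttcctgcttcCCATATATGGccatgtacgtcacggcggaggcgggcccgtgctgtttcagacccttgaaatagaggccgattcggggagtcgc
Egr2, chr20:21054442-21054601, minus strand: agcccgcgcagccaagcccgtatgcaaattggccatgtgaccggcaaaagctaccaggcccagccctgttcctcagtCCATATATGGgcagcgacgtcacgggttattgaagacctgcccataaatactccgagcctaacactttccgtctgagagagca

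Egr1, a zinc finger factor that drives collagen and tenocyte genes in tendon, had the largest fall of all named genes called. It read 88.7, 211 and 137 at 24 h, against 1473, 2784 and 3136 at 1 h. All 3 arrays at 24 h lay far below the lowest at 1 h, a log2 fold change of -4.10 ± 0.41 (adjusted p = 7.32e-05). Egr2, its relative with the same motif, read 92.4, 112 and 138 at 24 h, against 525, 581 and 919 at 1 h. The groups again lay apart, at -2.54 ± 0.25 (adjusted p = 7.32e-05).

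Fos, which pairs with Jun proteins to form AP-1, read 67.7, 71.2 and 70.3 at 24 h, against 198, 245 and 542 at 1 h. It was near the floor on every 24 h array and spread widely at 1 h, at -2.09 ± 0.39 (adjusted p = 0.00331). Myc, which drives growth and ribosome production, read 205, 262 and 215 at 24 h, against 1055, 1124 and 1121 at 1 h. Its arrays were tight within both groups and did not overlap, at -2.28 ± 0.21 (adjusted p = 4.85e-05). Zfp36, which destabilises cytokine mRNAs, fell by 2.30 and Ier2, an early nuclear protein, by 1.94 on the log2 scale. Klf6, a zinc finger factor, fell by 1.22.

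Members of the same list did not all fall. Apart from the 3 that rose, 12 were not called, and the log2 fold changes of the list reached up to 1.45. Dusp1, which switches off MAP kinases by dephosphorylation, read 2753, 2527 and 2034 at 24 h, against 1853, 2220.3 and 2675 at 1 h, with overlap, and was not called at 0.12 ± 0.14 (adjusted p = 0.654). Ier3, a survival factor, was not called either, at -0.27 ± 0.27. Hbegf, a ligand of the EGF receptor that is also induced early, fell: 86.4, 97.7 and 105 at 24 h, against 602, 410.5 and 653 at 1 h, with no overlap, at -2.50 ± 0.29 (adjusted p = 2.00e-04).

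Slpi, an inhibitor of neutrophil serine proteases, had the largest rise of a named gene and read 4037, 5746 and 1274 at 24 h, against 53.0, 41.7 and 48.4 at 1 h. It went unseen above the floor at 1 h and was among the brighter probes at 24 h, lowest in replicate 3, at 6.03 ± 0.73 (adjusted p = 2.50e-04). Lcn2, the lipocalin that binds bacterial iron carriers, read 6212, 7155 and 4915 at 24 h, against 523, 102 and 93.5 at 1 h. Replicate 1 at 1 h was several times the other 1 h arrays, but every 24 h array lay above it, at 5.14 ± 0.81 (adjusted p = 0.00127).

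Acute phase genes encode plasma proteins made mainly by the liver in inflammation. Of 26 on the array only 11 were bright enough to keep, and of these 6 rose and 1 fell, with a median of 1.14. Since a gene silent at 1 h was kept only if it was bright elsewhere, that count is a description. Orm1, or alpha-1-acid glycoprotein, read 957, 827 and 1307 at 24 h, against 59.5, 57.0 and 56.6 at 1 h. The 1 h arrays were all at the floor, and the rise of 4.13 ± 0.15 had the smallest adjusted p of the comparison, 2.52e-08. Hp, haptoglobin, which binds free haemoglobin, read 470.1, 563 and 647 at 24 h, against 64.3, 49.0 and 59.4 at 1 h. It too left the floor on all 24 h arrays, at 3.28 ± 0.13 (adjusted p = 7.01e-08). Lbp, which presents lipopolysaccharide to CD14, read 1507, 1703 and 2663 at 24 h, against 191, 156 and 80.4 at 1 h. The groups lay well apart, at 3.83 ± 0.42 (adjusted p = 1.37e-04).

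Hpx, hemopexin, which binds haem, rose by 1.54 ± 0.15. Cp, the copper protein ceruloplasmin, was called at 1.14 ± 0.36 (adjusted p = 0.0452) but lost the call when any of the arrays but replicate 1 at 1 h was left out, up to 0.145. Tf, transferrin, which carries iron, went the other way and read 206, 363 and 253 at 24 h, against 1141, 794 and 842 at 1 h. Its groups did not overlap, at -1.78 ± 0.25 (adjusted p = 5.96e-04). Cd14, the receptor that takes up lipopolysaccharide from Lbp, was bright at both times and not called, at -0.30 ± 0.31.

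The C/EBP factors that switch on acute phase genes bind motifs such as TTGCNNAA. It occurred in 5 of the 8 acute phase genes with a promoter on file, Cp, Hpx, Lcn2, Orm1 and Tf, of which Tf fell. Among all promoters it occurred in 10.6%. Orm1 is shown because it had the smallest p, with the match in capitals, on the minus strand.
Orm1, chr5:81788349-81788508, plus strand: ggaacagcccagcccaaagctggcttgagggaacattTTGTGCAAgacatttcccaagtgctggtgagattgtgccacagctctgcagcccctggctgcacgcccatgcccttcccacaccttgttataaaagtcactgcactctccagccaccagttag

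Chemokines and cytokines, the secreted signals of inflammation, moved unevenly. Of 43 kept genes of this list and of NF-kB signalling 8 rose and 2 fell, at a median of 0.11. Over all genes 11.1% rose and 8.73% fell. Without replicate 1 at 24 h 5 rose and 1 fell, and without replicate 3 at 1 h 6 rose and 1 fell. Ccl20, which attracts cells with the receptor CCR6, read 3279.5, 4004 and 3197 at 24 h, against 813, 218 and 90.5 at 1 h. Replicate 1 at 1 h was again the highest of its group, yet no array overlapped, at 3.79 ± 0.86 (adjusted p = 0.00985).

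Nos2, the inducible nitric oxide synthase, read 204, 525 and 92.1 at 24 h, against 51.4, 49.7 and 46.4 at 1 h. The 24 h arrays differed several-fold among themselves and were all above the floor, at 2.13 ± 0.50 (adjusted p = 0.012). Il6, the cytokine that drives acute phase genes in the liver, read 1029, 1803 and 561 at 24 h, against 526, 243 and 251 at 1 h. It was higher on each 24 h array than on any at 1 h, but the spread kept it from a call, at 1.67 ± 0.67 (adjusted p = 0.115). Ccl2 and Cxcl1, chemokines for monocytes and neutrophils, were bright throughout and not called, at -0.32 ± 0.19 and -0.01 ± 0.45.

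Il1rl1, the receptor of interleukin 33, was one of the list's falls and read 118, 166 and 91.2 at 24 h, against 671, 554 and 462 at 1 h. No array overlapped, at -2.19 ± 0.25 (adjusted p = 1.77e-04). Of 16 genes of prostaglandins and lysophosphatidic acid 4 rose and 5 fell, with 2 rising without replicate 2 at either time. Ptgs2, the inducible cyclooxygenase of prostaglandin synthesis, read 1093, 1921 and 1272 at 24 h, against 2663, 1685 and 2359.6 at 1 h and was not called at -0.66 ± 0.29. Ptgis, which makes prostacyclin, fell by 1.26 on the log2 scale. Enpp2, or autotaxin, which makes lysophosphatidic acid, rose by 1.36, and Plpp3, which breaks that lipid down, fell by 0.78.

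Several other genes were among the 15 largest rises. Chi3l1, a chitinase-like glycoprotein of inflamed connective tissue, rose by 4.14 ± 0.79. Ces1c, a carboxylesterase, rose by 3.84 ± 0.42, and Mgst2, a glutathione transferase of membranes, by 3.22 ± 0.24. Steap1, of a family of metalloreductases, read 702, 604 and 537 at 24 h, against 55.0, 90.1 and 62.3 at 1 h. Its 1 h arrays were near the floor, and it rose by 3.18 ± 0.17 (adjusted p = 9.35e-07). Cyp4b1, a cytochrome P450 enzyme, read 399.9, 362 and 468 at 24 h, against 48.4, 45.2 and 46.8 at 1 h and rose by 3.12 ± 0.14. Cd302, a C-type lectin receptor, rose by 2.44 ± 0.36.

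Matrix proteinases changed in both directions. Of 28 kept, 9 rose and 6 fell, with a median of 0.02, and the count of rises was 9 in all 6 fits that left out 1 array. Mmp12, a metalloelastase best known from macrophages, read 2230.2, 4208 and 771 at 24 h, against 161, 62.0 and 53.4 at 1 h. The 24 h arrays spread several-fold, with replicate 3 lowest, though none overlapped the 1 h arrays, at 4.58 ± 0.66 (adjusted p = 7.50e-04). Adamts5, the main aggrecanase of mouse cartilage, read 468, 630.0 and 539 at 24 h, against 66.8, 115 and 93.9 at 1 h. Both groups were tight and far apart, at 2.60 ± 0.20 (adjusted p = 1.03e-05).

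Adamts1, a relative that also cleaves versican and aggrecan, rose by 2.19 ± 0.26. Mmp13, the main interstitial collagenase of rodents, read 225, 150.3 and 157 at 24 h, against 58.9, 47.8 and 54.3 at 1 h. It was at the floor at 1 h on all arrays and above it at 24 h, at 1.71 ± 0.16 (adjusted p = 4.85e-05). Mmp14, the membrane metalloproteinase that activates Mmp2, read 1007, 987 and 1086 at 24 h, against 302, 334 and 627 at 1 h. The arrays did not overlap, at 1.36 ± 0.25 (adjusted p = 0.00305). Mmp3, stromelysin, was already one of the brightest probes at 1 h and read 11066, 7553 and 8925 at 24 h, against 9511, 5188 and 6717 at 1 h. Its groups overlapped, and 0.39 ± 0.23 was not called.

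Other proteases of the list fell or were not called. Mmp23, a membrane-anchored metalloproteinase, fell by 1.06 on the log2 scale (adjusted p = 4.07e-04). Ctsk, cathepsin K, which degrades collagen at low pH, read 531, 499 and 519.7 at 24 h, against 2118, 2629 and 2578 at 1 h. No array overlapped, at -2.24 ± 0.30 (adjusted p = 5.02e-04). Ctss, a cathepsin of antigen-presenting cells, fell by 1.72 and Fap, a fibroblast dipeptidyl peptidase, by 1.38 on the log2 scale. Ctsb and Ctsl, other cathepsins, were bright and not called, at 0.33 ± 0.17 and -0.05 ± 0.15.

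Inhibitors of proteinases moved apart as well. Of 16 kept, 3 rose and 6 fell, at a median of -0.57. Timp1, the inducible tissue inhibitor of metalloproteinases, read 14804, 13080.1 and 13080.1 at 24 h, against 10294, 5989.6 and 5989.6 at 1 h. Replicate 1 at 24 h was at the top value of the array, so its rise of 0.93 ± 0.18 (adjusted p = 0.00412) was measured against that ceiling. Timp3, which stays bound to matrix and is a potent inhibitor of aggrecanases, read 53.7, 54.8 and 59.3 at 24 h, against 86.4, 82.6 and 87.0 at 1 h. It was dim, with no overlap, and fell by 0.61 on the log2 scale (adjusted p = 0.00181). Cst3, which inhibits cathepsins, fell by 1.30, and Serpinf1, the serpin PEDF, by 1.33.

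**Figure D2:**
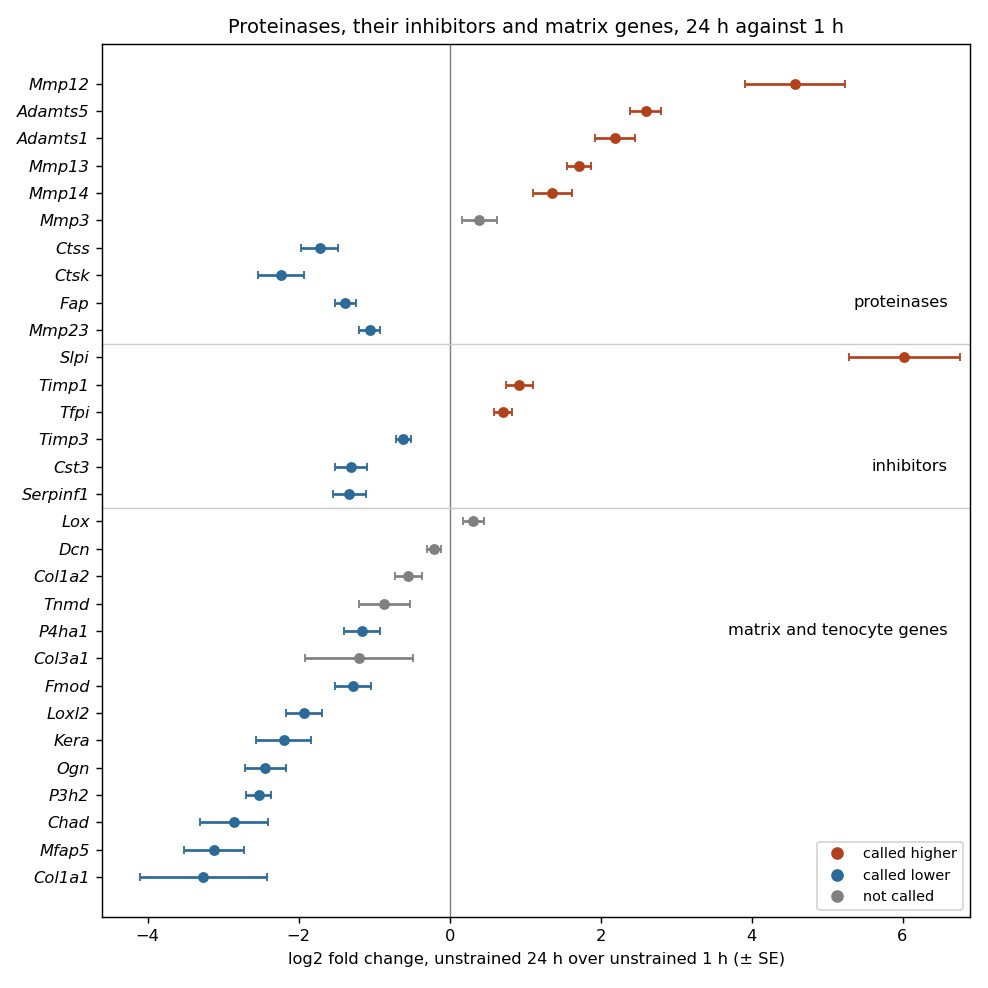
Log2 fold change of named proteinases, proteinase inhibitors and matrix or tenocyte genes in unstrained fascicles, 24 h over 1 h, with the standard error of the fit (3 arrays each). Mmp12 and Slpi have the largest rises of their groups, and Col1a1 and Mfap5 the largest falls among the matrix genes shown.

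Calls among genes of the matrix itself were mainly falls. Of 28 fibrillar collagens and collagen-modifying enzymes 9 fell and 1 rose, at a median of -0.48. The number that fell was 6 to 10 in the fits that left out 1 array. Col1a1, the main chain of collagen I, had the second largest fall of a named gene. Its arrays read 271, 495 and 911 at 24 h, against 1342, 6717 and 11930.4 at 1 h. Each 1 h array lay above each at 24 h, but both groups spread widely, and the log2 fold change was -3.26 ± 0.84 (adjusted p = 0.0191). The call was lost without replicate 1 or 2 at 24 h and without replicate 2 or 3 at 1 h, with an adjusted p of up to 0.0851.

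Col1a2, the partner chain, read 9013, 9245 and 11066 at 24 h, against 13080.1, 14804 and 14804 at 1 h. The arrays did not overlap, but those at 1 h touch the top value of the array, and -0.55 ± 0.18 was not called (adjusted p = 0.0547). Col3a1, of collagen III, read 228, 85.1 and 724 at 24 h, against 253, 713 and 937 at 1 h, with overlap, and was not called at -1.19 ± 0.71. Col5a1, whose chain starts collagen I fibrils, fell by 2.02 on the log2 scale. P3h2, a prolyl 3-hydroxylase, read 91.2, 72.7 and 109 at 24 h, against 469.6, 515 and 575 at 1 h. Both groups were tight, at -2.53 ± 0.16 (adjusted p = 2.92e-06).

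Loxl2, which crosslinks collagen, fell by 1.93 and P4ha1, a subunit of prolyl 4-hydroxylase, by 1.16 on the log2 scale. Lox, the main lysyl oxidase, was bright and not called at 0.32 ± 0.14. Plod3, a lysyl hydroxylase, was the list's single rise, at 0.64 ± 0.14 (adjusted p = 0.00841). Of the 10 other collagens 4 fell and 0 rose, in all 6 fits that left out 1 array too. Col14a1, which sits on fibril surfaces, fell by 2.27 and Col15a1, of basement membrane zones, by 2.39. Col14a1 spread widely at 1 h, at 148, 680 and 385, and read 110, 161 and 172 on the strained 1 h arrays. Its time change under strain was not called, at -1.17 ± 0.42 (adjusted p = 0.0682).

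Of 35 proteoglycans and matrix glycoproteins 15 fell and 1 rose, at a median of -0.53, and 10 to 16 fell and 1 or 2 rose when 1 array was left out. Leucine-rich proteins, several of which set fibril width, changed unevenly. Chad, chondroadherin, read 192, 249 and 474 at 24 h, against 2382, 2185 and 1655 at 1 h. No array overlapped, at -2.86 ± 0.45 (adjusted p = 0.00119). Ogn, osteoglycin, read 83.7, 109.7 and 126 at 24 h, against 426, 598 and 730.5 at 1 h and fell by 2.44 on the log2 scale. Kera, keratocan, fell by 2.20 and Fmod, fibromodulin, by 1.27.

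Dcn, decorin, the most abundant of them in tendon, read 9705, 8675 and 9013 at 24 h, against 11066, 10294 and 10294 at 1 h. It was near the top of the scale at both times and not called, at -0.21 ± 0.09 (adjusted p = 0.163). Prg4, lubricin, which lets fascicles slide, touched that top value at 1 h, at -0.23 ± 0.12. Has1, a hyaluronan synthase, fell by 2.17. Ecm1, a matrix glycoprotein, fell by 2.35. Uap1, which makes the sugar nucleotide for hyaluronan and N-linked sugars, read 263, 343 and 259 at 24 h, against 1581, 1925 and 2137 at 1 h. Its groups were tight and did not overlap, at -2.71 ± 0.19 (adjusted p = 5.16e-06).

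Elastic fibre genes held large changes in opposite directions. Of 13 kept, 6 fell and 2 rose, at a median of -0.72, and 4 to 8 fell when 1 array was left out. Mfap5, a microfibril glycoprotein, read 159, 115 and 301 at 24 h, against 1298, 1677 and 1642 at 1 h. The groups lay apart, at -3.12 ± 0.40 (adjusted p = 3.33e-04). Ltbp2, a microfibril protein related to those that bind latent TGF-beta, read 748, 833 and 1138 at 24 h, against 90.0, 186 and 105 at 1 h. It was higher on each 24 h array, at 2.89 ± 0.39 (adjusted p = 5.16e-04). Emilin1, an elastic fibre protein, rose by 1.77 ± 0.19, and Ltbp4, another of the latent TGF-beta binding proteins, fell by 1.39.

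Several further genes had large falls. Myoc, myocilin, read 215, 218 and 1180.5 at 24 h, against 4434, 3249 and 1596 at 1 h. Replicate 3 at 24 h was far above its group and replicate 3 at 1 h below its own, so although no array overlapped, the call at -2.90 ± 0.73 (adjusted p = 0.0174) was lost without replicate 1 or 2 of either time, up to 0.0803. Wfdc1, a small WAP domain protein, fell by 2.87, Fibin, a secreted protein known from fish fin buds, fell by 2.80, and Prss23, a secreted serine protease, fell by 2.76. Slc14a2, a urea transporter, fell by 2.73, while its dimmer probe was not called at -0.94. Gsn, gelsolin, which severs actin filaments, read 1460.3, 1402 and 1723 at 24 h, against 9245, 8925 and 8356 at 1 h. No array overlapped, at -2.54 ± 0.28 (adjusted p = 1.44e-04).

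Complement genes changed in both directions. Of 17 kept, 7 fell and 3 rose, at a median of -0.53, and the number that rose was 0 without replicate 1 at 24 h and 1 without replicate 2 or 3 at either time. The 3 chains of C1q, which starts the classical pathway and is made chiefly by macrophages, fell together. C1qb read 66.5, 80.1 and 79.5 at 24 h, against 824, 618 and 623 at 1 h, with no overlap, at -3.18 ± 0.27 (adjusted p = 2.06e-05). C1qc read 51.2, 55.3 and 52.8 at 24 h, against 441, 281 and 262 at 1 h, at the floor on the 24 h arrays, at -2.59 ± 0.21 (adjusted p = 1.64e-05). C1qa fell by 1.76. In bulk tissue, fewer cells of a type and less RNA per cell cannot be told apart.

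The proteases and regulators that fibroblasts also make changed unevenly. C1r, the first protease of the pathway, read 2137, 2007 and 2316 at 24 h, against 2653, 1820.4 and 2015 at 1 h, with overlap, and was not called at 0.01 ± 0.17. C2 was bright and not called, at -0.12 ± 0.27. Cfi, which inactivates C3b, rose by 0.82 ± 0.19 (adjusted p = 0.0117), and lost the call without replicate 1 at 24 h, at 0.0565. Cd59b, which blocks the membrane attack complex, fell by 2.11 and Cd55, which speeds decay of C3 convertases, by 1.10.

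Macrophage markers as a list were divided as well. Of 28 on the array 24 were kept, of which 9 fell and 4 rose, at a median of -0.35. Their summed intensity was 3566 to 4533 on the 24 h arrays, against 4909 to 7920 on the 1 h arrays, with no overlap. Lyve1, of resident macrophages and lymphatic vessels, read 52.7, 68.2 and 57.6 at 24 h, against 219.8, 152 and 253 at 1 h and fell by 1.79. Fcgr2b, an inhibitory receptor for IgG, read 125, 121 and 168 at 24 h, against 69.4, 59.7 and 53.5 at 1 h and rose by 1.17 ± 0.13. Tyrobp and Fcer1g, signal adaptors of myeloid cells, were above the floor at both times and not called, at -0.21 ± 0.24 and 0.81 ± 0.32. The part of macrophage number in the fall of C1q and Ctss was not tested.

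Markers of other cells were mostly dim. Of the 5 neutrophil and mast cell genes kept 1 fell, which was Il1rl1 above, and of 5 lymphocyte genes, 7 red cell or platelet genes and 3 epidermal genes 0 were called. The shares called among endothelial, mural cell and skeletal muscle genes were 18.2%, 16.7% and 14.3%, below the 19.8% over all genes. Of 11 endothelial genes 2 fell, Lyve1 and Aqp1, a water channel, which fell by 1.65. Of 6 mural cell genes Cspg4 fell, by 1.20, and of 7 skeletal muscle genes Tnnt3, a fast troponin, fell by 0.93, while Myl1, a fast myosin light chain, read 88.8, 83.9 and 67.7 at 24 h, against 66.3, 61.3 and 58.0 at 1 h and was not called. Of 10 genes of sheath or surface fibroblasts, the looser tissue around fascicles, 6 fell and 1 rose, at a median of -1.02, and 0 rose without any of 5 of the 6 arrays. Pi16, a marker of such fibroblasts, read 75.2, 83.8 and 102 at 24 h, against 159.7, 865 and 503 at 1 h. It was low on replicate 1 at 1 h, did not overlap, and fell by 2.25 (adjusted p = 0.0085), while its dimmer probe was not called at -0.91. On the strained 1 h arrays Pi16 read 85.7, 153 and 132. Its time change under strain was not called, at -0.41 ± 0.50 (adjusted p = 0.646), nor was the difference of the time changes (adjusted p = 0.469). The list of sheath or surface fibroblasts had a median of -0.35 under strain. Tppp3, of the tendon sheath, fell by 0.93.

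Among the lists described, cholesterol synthesis had the largest share of members that rose. It is the chain of enzymes from acetyl-CoA to sterol that SREBP2 controls. Of 21 kept genes 15 rose and 0 fell, against 11.1% rising over all genes, with a median log2 fold change of 1.11. The count was 15 in all 6 fits that left out 1 array. Fdft1, squalene synthase, the first step committed to sterols, read 350.0, 269 and 270.1 at 24 h, against 65.2, 79.7 and 75.7 at 1 h. Both groups were tight and apart, at 2.0 ± 0.14 (adjusted p = 4.39e-06). Sqle, squalene epoxidase, read 319, 285 and 264 at 24 h, against 58.4, 92.2 and 65.8 at 1 h, likewise with no overlap, at 2.03 ± 0.20 (adjusted p = 5.87e-05).

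Earlier in the chain, Mvd, which makes isopentenyl diphosphate, read 299, 286 and 265 at 24 h, against 93.5, 94.5 and 90.8 at 1 h and rose by 1.61 ± 0.10. Idi1, its isomerase, rose by 1.65 ± 0.17 and Fdps, which makes farnesyl diphosphate, by 1.90 ± 0.20. Later, Cyp51, which removes a methyl group from lanosterol, rose by 1.04 ± 0.13. The regulators Srebf1, Scap and Insig2, which form and hold back the SREBP complex, were not called, at 0.07 ± 0.14, 0.10 ± 0.17 and -0.11 ± 0.17. The sterol motif TCACNCCAC, found in 1.12% of all promoters, was in 0 of the 16 genes of the list with a promoter on file. That says only that these letters are not in those windows.

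Glycolysis and its companions rose in part. Of 28 kept genes of glycolysis and the hypoxia response 13 rose and 4 fell, at a median of 0.74, and 8 to 16 rose when 1 array was left out, with 8 without replicate 2 at 24 h. Gapdh, often taken as a constant gene, read 2515, 3392 and 2249.8 at 24 h, against 1486, 1385 and 1289 at 1 h. All 24 h arrays lay above all 1 h arrays, at 0.95 ± 0.15 (adjusted p = 0.00113). Ldha, which makes lactate, read 1428, 1893 and 1155 at 24 h, against 634, 652 and 720.2 at 1 h and rose by 1.13 ± 0.16. Pgk1 rose by 1.11 ± 0.16 and Eno1, enolase, by 1.20 ± 0.17.

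Hif1a, the oxygen-sensing transcription factor, rose by 0.80 ± 0.13 (adjusted p = 0.00132). Hk2, the hexokinase that starts glycolysis, was among the falls, at -1.02 ± 0.14. Another gene used as a constant, Actb, beta-actin, read 2249.8, 1642 and 2234 at 24 h, against 3136, 3145 and 2868 at 1 h. It fell by 0.59 (adjusted p = 0.0269), a call lost without replicate 2 at 24 h and without any of the 1 h arrays, up to 0.109. A dimmer Actb probe was called at -0.94 ± 0.21 (adjusted p = 0.0099), and the dimmest one kept was not, at -0.94 ± 0.31 (adjusted p = 0.0587).

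Genes of the respiratory chain moved by less but in 1 direction. Of 54 kept 25 rose and 0 fell, 51 had a positive fold change, and the median was 0.40. The number that rose was 11 without replicate 1 at 24 h, 13 without replicate 3 at 1 h and 18 to 23 without any other array. Cox7b, a subunit of cytochrome oxidase, read 2015, 1680.4 and 2023 at 24 h, against 1085, 1195 and 1058 at 1 h. The groups did not overlap, at 0.77 ± 0.10 (adjusted p = 4.50e-04). Ndufs1, of complex I, rose by 0.83 ± 0.13 and Atp5mg, of the ATP synthase, by 0.52 ± 0.08. Cycs, cytochrome c, was not called, at -0.24 ± 0.11.

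Proteasome subunits rose in part. Of 36 kept 15 rose and 1 fell, 32 had a positive fold change, and the median was 0.39. Without replicate 1 at 24 h 7 rose, without replicate 2 at 24 h 9, without replicate 3 at 1 h 8, and 10 to 16 without any other array. Psma7, a subunit of the core, read 1760.2, 1853 and 1703 at 24 h, against 1121, 1259 and 1062 at 1 h, with no overlap, at 0.63 ± 0.10 (adjusted p = 0.00144). Pomp, which assembles the core, rose by 0.72 ± 0.14. Psmb8 and Psmb9, the subunits that interferon swaps into the core, rose by 1.10 ± 0.22 and 1.03 ± 0.15. Of 31 kept genes of the interferon response and MHC class I, 4 rose (12.9%) and 0 fell. That rising share was near the 11.1% over all genes. Among the rises was B2m, the light chain of class I, at 0.52 ± 0.12. B2m lost its call without replicate 2 at 24 h, at 0.0509.

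**Figure D3:**
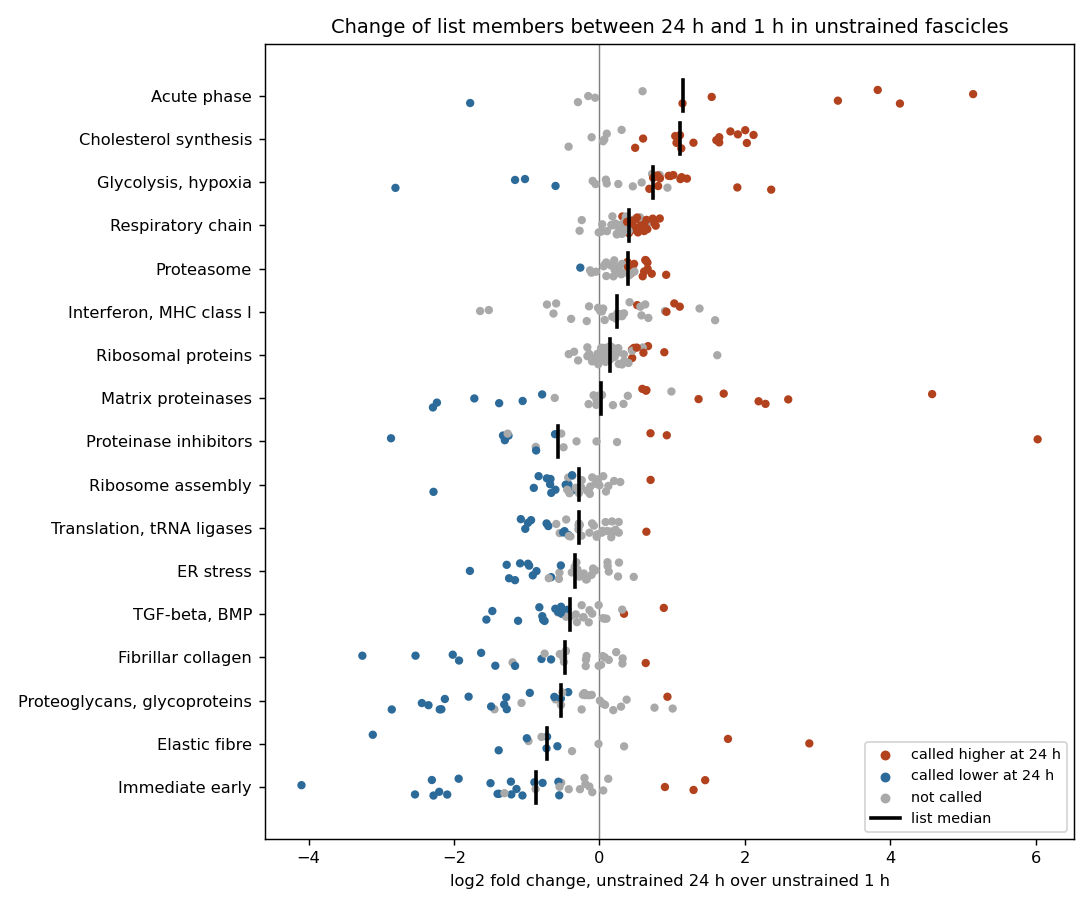
Log2 fold change of the kept members of 17 gene lists in unstrained fascicles, 24 h over 1 h. Each dot is a gene, coloured by whether it was called higher, lower or neither, and the black bar is the list median, which runs between 1.14 for acute phase genes and -0.88 for immediate early genes.

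Several lists of genes that serve protein synthesis and folding held more falls than rises. Of 31 genes of the endoplasmic reticulum stress response, which raises folding capacity, 11 fell and 0 rose, at a median of -0.34, and 10 to 12 fell when 1 array was left out. Hspa5, the main chaperone there, read 3234, 3220.1 and 3039 at 24 h, against 6717, 5245 and 5438 at 1 h. No array overlapped, at -0.87 ± 0.16 (adjusted p = 0.00261). Herpud1, which helps to remove misfolded proteins, read 302, 328 and 347 at 24 h, against 1295, 1013 and 1066 at 1 h. It had the largest fall in the list, at -1.78 ± 0.17 (adjusted p = 5.54e-05).

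Creld2, a secreted folding factor, fell by 1.09. Xbp1, the transcription factor that IRE1 splices into its active form, fell by 0.67. Calr and P4hb, abundant lumenal proteins, were bright and not called, at -0.09 ± 0.16 and 0.13 ± 0.13. The stress element that ATF6 binds together with NF-Y was searched on both strands as CCAAT, then 9 bases of any kind, then CCACG. It was in 0.0657% of all promoters and in 8 of the 28 genes of this list with a promoter on file. Of the 10 such genes that fell, 3 held it, Hspa5, Creld2 and Xbp1. Its other matches in the list were in genes not called. The promoters of Hspa5 and Creld2 are shown with the match in capitals, on the minus strand in Creld2.
Hspa5, chr3:38452856-38453015, plus strand: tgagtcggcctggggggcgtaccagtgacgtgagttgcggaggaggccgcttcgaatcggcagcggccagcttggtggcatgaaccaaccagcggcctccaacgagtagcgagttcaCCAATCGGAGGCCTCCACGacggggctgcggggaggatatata
Creld2, chr7:121789224-121789383, plus strand: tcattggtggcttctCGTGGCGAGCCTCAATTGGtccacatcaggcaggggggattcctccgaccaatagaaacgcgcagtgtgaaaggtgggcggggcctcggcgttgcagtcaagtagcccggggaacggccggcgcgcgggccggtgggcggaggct

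Amino acid and translation genes were among them. Of 26 targets of ATF4 and amino acid genes 8 fell and 1 rose, at a median of -0.33. Atf4 itself, the factor translated when amino acids run short, read 441, 696 and 459 at 24 h, against 1038, 788 and 1329.8 at 1 h and fell by 0.98 (adjusted p = 0.00659). Slc7a5, a carrier of large neutral amino acids, fell by 1.12. Of 38 translation factors and tRNA ligases 9 fell and 1 rose. Tars1, which charges threonine tRNA, fell by 1.08, while its dimmer probe was not called at 0.15. Aars1, for alanine, fell by 0.70.

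Of 35 genes of ribosome assembly 12 fell and 1 rose, at a median of -0.28, and 5 fell without replicate 3 at 24 h and 6 without replicate 1 at 1 h. Ncl, nucleolin, read 271, 194 and 256 at 24 h, against 569, 362 and 427 at 1 h and fell by 0.90 (adjusted p = 0.00425). Mrto4, an assembly factor of the large subunit, fell by 0.84. Of 57 ribosomal proteins kept 7 rose (12.3%) and 0 fell, at a median of 0.15, a rising share near the 11.1% over all genes, and 4 rose without replicate 1 or 3 at 24 h or without replicate 3 at 1 h. Rpl7 read 1293, 1117 and 1139 at 24 h, against 751, 743 and 735 at 1 h and rose by 0.67 ± 0.09 (adjusted p = 4.92e-04), and Rplp0 was not called at 0.04 ± 0.11.

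TGF-beta signals keep up the tenocyte state in mice. Transcripts of the list, which mixes ligands, inhibitors and targets, were lower in part, and whether signalling changed was not tested. Of 31 genes of TGF-beta and BMP signalling 13 fell and 2 rose, at a median of -0.40. The number that fell was 6 without replicate 3 at 1 h, 8 without replicate 1 at 24 h and 9 to 12 without any other array, while 0 or 1 rose. Tgfb3, the isoform of tendon development and repair, read 80.4, 77.2 and 113 at 24 h, against 205, 256 and 285 at 1 h. No array overlapped, at -1.47 ± 0.18 (adjusted p = 3.05e-04). Ccn2, a matricellular target of TGF-beta and of YAP, read 691, 487 and 1136 at 24 h, against 1942, 2939.9 and 1698 at 1 h and fell by 1.56 (adjusted p = 0.00881). Pmepa1, a feedback inhibitor that TGF-beta induces, fell by 1.12.

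Bmp4, a ligand, was dim and fell by 0.57. Id1 and Id2, targets of BMP signalling, were not called, at -0.22 ± 0.23 and -0.24 ± 0.30. Growth factors went both ways, with 6 of 26 rising and 5 falling, and 2 rising without replicate 2 at 1 h and 3 without replicate 1 at either time or replicate 3 at 24 h. Angptl4, a secreted inhibitor of lipoprotein lipase, read 207, 194 and 214 at 24 h, against 53.3, 47.8 and 46.2 at 1 h. It left the floor on each 24 h array, at 2.06 ± 0.13 (adjusted p = 2.18e-06). Pdgfa fell by 1.24, Igfbp6, which binds IGF2, by 1.29, and Fgf7, a fibroblast signal to epithelia, rose by 1.07 ± 0.19.

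Strained fascicles changed with time in much the same genes. At 1 h, strained and unstrained arrays of the same number deviated together from their group means, at r = 0.604, 0.537 and 0.521 over probes, and at 24 h at 0.039, 0.309 and 0.388. The samples may therefore share a source, and the overlap below is not that of independent samples. Among the 11258 kept probes 1374 (12.2%) rose and 959 (8.52%) fell between the strained arrays. Of the 1107 probes that rose without strain 728 also rose with it, which is 65.8% of the first list and 53.0% of the second. Of the 835 that fell 559 also fell, 66.9% and 58.3%. The sign was the same in 94.2% of the rises and 96.0% of the falls, whereas 51.0% of all kept probes were positive under strain. Over probes, which are not independent, the log2 fold changes correlated at r = 0.796. The cholesterol list had medians of 1.11 without and 0.86 with strain, and the immediate early list of -0.88 and -1.12. Other lists were less alike. Acute phase genes had medians of 1.14 without and -0.01 with strain, and glycolysis and hypoxia genes of 0.74 and 0.18. Ribosome assembly genes had medians of -0.28 and 0.11. Of the cell cycle genes 2 rose without strain and 13 with it. Differences between lists were not tested.

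Opposite calls were made for 3 probes: Gda, Isyna1 and a probe without a gene name. The first 2 were picked out after their values were seen. Gda, a guanine deaminase, rose by 0.44 without strain, a call lost without replicate 2 at 24 h, and fell by 0.39 with strain. Isyna1, which makes inositol phosphate, rose by 0.86 without strain and fell by 0.82 with it. Its dimmer probe was not called in unstrained fascicles, at 0.35 (adjusted p = 0.26). The rise lost the call without replicate 2 at 24 h, replicate 1 at 1 h or replicate 3 at 1 h.

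The difference of the time changes, without strain minus with strain, was tested for every kept probe. It was called for 9 probes (0.0799%), all positive, and 917 had an unadjusted p under 0.05. Without replicate 1 of unstrained 1 h 16 were called, and without replicate 3 of strained 1 h 15. Orm1 and Hp led, acute phase genes that rose without strain. In strained fascicles Orm1 read 105, 95.8 and 84.6 at 24 h, against 66.6, 57.5 and 58.4 at 1 h. Those arrays do not overlap either, but the change of 0.64 ± 0.15 was smaller than the 4.13 ± 0.15 without strain, a difference of 3.49 ± 0.21 (adjusted p = 8.16e-06). Hp read 69.4, 74.7 and 69.8 at 24 h, against 70.8, 59.2 and 58.5 at 1 h with strain, close to the floor on every array, and the difference was 3.09 ± 0.19 (adjusted p = 8.16e-06).

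Cyp4b1 read 90.1, 61.7 and 85.2 at 24 h, against 46.1, 42.8 and 38.1 at 1 h with strain. It rose there too, by 0.89 ± 0.14, and the difference was 2.24 ± 0.20 (adjusted p = 4.47e-04). Asgr1, a receptor for desialylated glycoproteins known from liver, read 253, 228 and 153 at 24 h, against 57.0, 55.2 and 45.2 at 1 h without strain. With strain it read 48.8, 63.3 and 60.2 at 24 h, against 51.8, 54.1 and 52.4 at 1 h, all near the floor, and the difference was 1.87 ± 0.24 (adjusted p = 0.00974). Bst1, the ectoenzyme CD157, rose by 2.15 ± 0.13 without and 0.82 ± 0.13 with strain (adjusted p of the difference = 0.0152). Leaving out strained replicate 1 at 24 h or strained replicate 2 at 1 h ended that call.

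Rnf125, a ubiquitin ligase that limits interferon signalling, rose by 1.13 ± 0.12 without strain and by 0.03 ± 0.12, not called, with it (adjusted p of the difference = 0.0297). The call held in 3 of the 12 fits that left out 1 array, those without unstrained replicate 1 or strained replicate 1 or 3 at 1 h. For 2 genes the difference lay in a fall under strain. Nfil3, a transcription factor of the clock and of lymphocytes, read 398, 496 and 371 at 24 h, against 427, 522 and 502 at 1 h without strain, with overlap and no call. With strain it read 204, 220.3 and 168 at 24 h, against 672, 579.8 and 720.2 at 1 h, all lower at 24 h, and the difference was 1.54 ± 0.20 (adjusted p = 0.00974). Plpp3 fell by 0.78 without and 2.12 with strain (adjusted p of the difference = 0.0146), a call lost without unstrained replicate 1 at 24 h.

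In this fit 0 differences in the opposite direction passed. The smallest p were those of Pmepa1 at -1.21 ± 0.23 (adjusted p = 0.1), Ncl at -1.29 ± 0.25 (adjusted p = 0.114) and Esm1, an endothelial proteoglycan, at -1.59 ± 0.32 (adjusted p = 0.121). Adamts5 rose by 2.60 ± 0.20 without and by 0.93 ± 0.20 with strain, and Mmp13 by 1.71 ± 0.16 without, with 0.52 ± 0.16 under strain. Their differences of 1.67 ± 0.28 and 1.18 ± 0.23 did not pass (adjusted p = 0.073 and 0.108).

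The number of differences called depended on whether that shared number was used. With each number as 1 block across both times 30 were called, 23 positive and 7 negative. With the number as a block within each time, an alternative added after the data were seen, 184 were called, 130 positive and 54 negative. All 9 above were called in both. In these fits Pmepa1 passed with adjusted p of 0.0132 and 0.00254, Ncl with 0.0093 and 0.00254, Adamts5 with 0.0093 and 0.00139 and Mmp13 with 0.0132 and 8.85e-04. Esm1 passed in the second alone (adjusted p = 0.00494). The labels do not say what a number stands for.

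**Figure D4:**
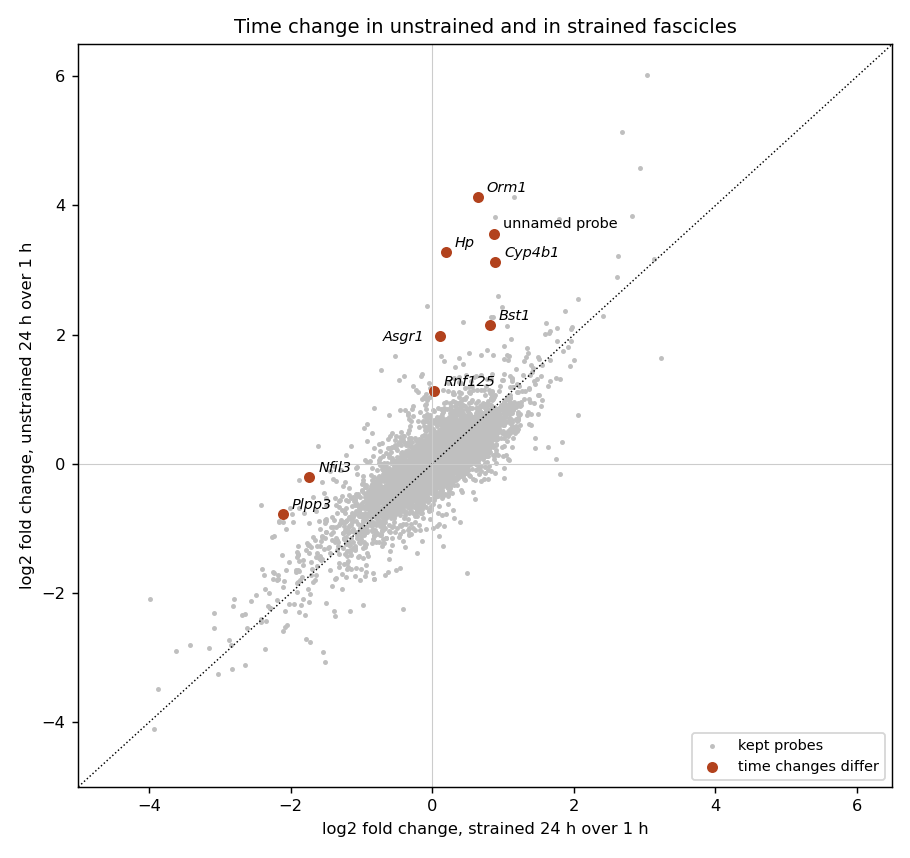
Log2 fold change of 24 h over 1 h without strain (vertical axis) against that with strain (horizontal axis) for the 11258 kept probes. The dotted line marks equal changes, and the 9 probes called for a difference with no replicate block, such as Orm1 at 4.13 without and 0.64 with strain, are in colour above it.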

How the data were processed

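Per the labels' protocols, Trizol was used to extract total RNA, a column kit and DNase to clean it, and biotin to label it. The values are the authors' deposited processed intensity values, with 22517 probes measured on each of 12 arrays. They were already normalized between arrays: sorted values of any array differ by at most 0.0928% from those of the first, as quantile normalization leaves them. No software, version or background step is named in the sources used here. The number of arrays limits the precision, and the median standard error of a fold change was 0.12. A second table with 24 columns of per-sample values names them only by number and was not used.

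Intensities were taken on the log2 scale with no further normalization. The table used holds no detection p-values, so the upper 50% of probes by mean over the 12 arrays were kept, 11258 in all, the dimmest at 56.2. Of all probes 13787 have 1 gene symbol, 0 several and 8730 none in GEO's platform annotation. Symbols matched through Entrez identifiers to the rat gene table of assembly GRCr8 for 13747 probes, and 0 changed. Where a gene had several kept probes, the one with the highest mean was used. Probe positions are not printed, since the build behind the array's annotation is not named in the labels.

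Two-sided tests were limma's (version 3.58.1, R 4.3.3), from 1 fit of 4 group means to the 12 arrays with eBayes moderation. It had 8 residual degrees of freedom and 4.08 prior ones, with Benjamini-Hochberg adjustment over all kept probes at 0.05. The difference of the time changes, unstrained minus strained, was a contrast of the same fit. For the time change in unstrained fascicles, the procedure was checked on simulated data with independent arrays. The difference contrast and deviations shared by replicate number were not simulated. The text names the 15 genes that rose most and the 15 that fell most among called genes whose arrays did not overlap, up to 6 called members of smallest p and 3 bright members not called per described list, 21 further genes set by name, and the 8 smallest p in each direction of the difference. Genes outside this rule are marked. The 47 gene lists hold 1233 genes on the array, of which 974 were kept. The comparison, its lists and its named genes were chosen with earlier results of these data known, so counts over a list are descriptions. Alternatives covered the filter, variance estimation, array weights, background, cyclic loess, a block for each replicate number (across times and, added later, within each time), the unstrained arrays alone and each array left out.

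Promoter sequences came from RefSeq, build GRCr8, and 21 motifs were searched in 7 lists, after the values were seen. A list gene was counted if any of its promoters matched, while the share over all is of single promoters, so the units differ. The motif matches are descriptions with no test. Plots used matplotlib 3.10.9 (Python 3.11.15).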

Additional observations from a re-analysis of the deposited data

Results flagged for a closer look

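The change with time differed between unstrained and strained fascicles for 9 probes by the test of the difference itself (limma with no replicate block, adjusted p under 0.05), each with a positive difference, unstrained minus strained. The largest was that of Orm1, at 3.49 ± 0.21 on the log2 scale, followed by Hp at 3.09 ± 0.19. A probe without a gene name had 2.69 ± 0.31 (adjusted p = 0.00397). It read 693, 713 and 865 at 24 h, against 87.1, 56.4 and 53.1 at 1 h without strain, and 139, 100 and 109 at 24 h, against 84.4, 54.2 and 53.7 at 1 h with strain. Cyp4b1 stood at 2.24 ± 0.20, Asgr1 at 1.87 ± 0.24, Nfil3 at 1.54 ± 0.20, Plpp3 at 1.33 ± 0.18, Bst1 at 1.33 ± 0.19 and Rnf125 at 1.10 ± 0.17. All but Plpp3, Bst1 and Rnf125 kept the call when any of the 12 arrays was left out.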

How the results depend on the processing

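The 1942 calls for time stayed within 1.5 times in every setting but the one without replicate 1 at 24 h. They numbered 1227 to 1623 when 1 array was left out, 676 to 912 higher and 551 to 755 lower, and 1788 to 2076 with other filters, variance estimation, weights, background or loess. Cyclic loess gave 949 higher and 933 lower. The labels do not say whether replicate numbers pair the unstrained samples across times. Deviations of their same-numbered arrays correlated at 0.0018, -0.048 and 0.125, which with 3 arrays a group cannot decide it. With the replicate block 2232 probes were called over 12 arrays and 1663 over the 6 unstrained arrays, which gave 1803 with no block. Of 142 named genes called here, 134 kept the call in all 6 fits that left out 1 array and 133 in all alternatives that could be run, and 0 changed sign with a call. The list counts in the text move with single arrays as given there. The 9 differences became 19 (17 positive, 2 negative) with variance trend and robust estimation, 30 (23 and 7) with the replicate block, 184 (130 and 54) with the replicate block within each time, added after the data were seen, and 7 to 16 when 1 array was left out, with 7 to 14 positive and 0 to 4 negative. Array weights and background subtraction each gave 1 negative call. All 9 were also called under the other variance, weight, background, loess, block and unfiltered settings. Under the stricter filter Asgr1 and Rnf125 were too dim to be tested, and the other 7 were called. When 1 array was left out, 7 to 9 of them were called. The cause of these shifts was not tested. Signal limits dim genes: several 1 h values lie near the floor, while arrays of Col1a2, Timp1 and Prg4 touch the top value.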

Other observations

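Genes of the oxidative stress response went in opposite directions at 24 h. Of 34 kept, 10 rose and 8 fell, at a median of 0.17, and 5 fell without replicate 3 at 24 h. Hmox1, haem oxygenase, was among the falls and read 785, 1295 and 381 at 24 h, against 5919, 5355 and 4180.2 at 1 h. Its arrays did not overlap, at -2.81 ± 0.54 (limma adjusted p = 0.00391). Gclc and Gclm, the subunits of the enzyme that limits glutathione synthesis, fell by 1.57 and 1.15 on the log2 scale. Prdx5, a peroxiredoxin, which removes peroxide, read 2820.2, 3763 and 2086 at 24 h, against 858, 687 and 683 at 1 h and rose by 1.93 ± 0.19, and Prdx3, a peroxiredoxin of mitochondria, rose by 0.85 ± 0.11. Mgst1, a membrane glutathione transferase, rose by 2.28 ± 0.23. Mt1, a metallothionein, read 13080.1, 11930.4 and 10810.5 at 24 h, against 6879, 7787 and 5613 at 1 h. No array overlapped, but it was close to the ceiling and not called, at 0.83 ± 0.30 (limma adjusted p = 0.0821).

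Lipid genes other than those of sterols rose in 8 of 23 and fell in 2, and 1 fell without replicate 1 or 2 at 24 h or replicate 2 or 3 at 1 h. Scd, a fatty acid desaturase, read 493, 694 and 307 at 24 h, against 109, 115 and 89.7 at 1 h and rose by 2.18 ± 0.33 (limma adjusted p = 9.77e-04). Lpl, lipoprotein lipase, which Angptl4 inhibits, read 63.8, 64.2 and 83.2 at 24 h, against 201, 323 and 221 at 1 h and fell by 1.80. Hsd11b1, which regenerates active glucocorticoid, read 984, 1392 and 1189 at 24 h, against 384, 232 and 116 at 1 h. All 24 h arrays lay above the 1 h arrays, at 2.43 ± 0.40 (limma adjusted p = 0.00158). Clock and glucocorticoid targets fell in 6 of 18 and rose in 2, among them Klf9, which fell by 1.73, and Bhlhe40, which fell by 1.64. Of 20 heat shock genes 2 rose and 3 fell, which is 25% called, against 19.8% over all genes. The falls included Cryab at -2.14 ± 0.29 and Hspb1 at -1.03 ± 0.13, both small heat shock proteins, and Hspd1, the mitochondrial chaperonin, rose by 0.65 ± 0.15. Of 20 integrin and adhesion genes 7 fell and 2 rose, led by Itgb5 at -0.91 ± 0.17 and Itgb1 at -0.44 ± 0.08 among the falls, and 3 fell without replicate 1 at 24 h or replicate 3 at 1 h and 4 without replicate 2 or 3 at 24 h. Parva, which links integrins to actin, rose by 1.11 ± 0.16. Of 28 genes of the actin cytoskeleton and targets of SRF or YAP 7 fell and 0 rose, and 4 fell without replicate 2 at 24 h or replicate 2 or 3 at 1 h.

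The cell cycle list and the p53 and apoptosis list held few calls, at 6.67% and 13.8% of genes, against 19.8% over all genes. Of 30 cell cycle genes 2 rose and 0 fell, and 0 or 1 rose when 1 array was left out. Of 29 p53 and apoptosis genes 2 rose and 2 fell. The lysosomal, Wnt and metal handling lists had 22.9%, 20% and 33.3% of genes called, which is not below the share over all genes. Of 35 lysosomal and autophagy genes 4 rose and 4 fell, with 0 rising without replicate 1 or 3 at 24 h. Of 15 Wnt genes 1 rose and 2 fell, with 0 falling without replicate 1 or 2 at 24 h. Of 15 metal handling genes 4 rose and 1 fell, with 1 rising without replicate 1 or 2 at 24 h or replicate 2 or 3 at 1 h. Among markers of other cells, 3 of 13 chondrocyte and bone genes fell, 1 of 4 adipocyte genes rose, and of 11 nerve and Schwann cell genes 1 rose and 2 fell. The shares called were 23.1%, 25% and 27.3%, against the 19.8% over all genes.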
